A study of Mus musculus with 8 samples.

Results

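The genes described here encode the protein components of the cytosolic ribosome, and they were followed in poly(A)-selected RNA from Paneth cells, the granule-filled cells that secrete antimicrobial peptides into the crypts of the small bowel. They were chosen by name: protein-coding genes on the autosomes or the X chromosome whose symbol begins with Rpl or Rps and a digit, or is Rplp0, Rplp1, Rplp2 or Rpsa, without the Rps6k kinases and without pseudogenes. Of the 55414 gene IDs in the counts table, 90 met this rule, of which 54 carry large subunit names and 36 small subunit names. Among the 90 were 12 paralogues or retrogene copies, such as Rpl7l1 and Rps27l, and Rps19bp1, which encodes a binding partner of a ribosomal protein and no ribosomal protein itself.

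The RNA came from FACS-sorted Paneth cells of mouse small intestine, in 8 libraries. Of these, 4 came from DT TG mice (TG), in which Paneth cells make diphtheria toxin from a transgene, and 4 came from wild type controls (WT). The sources used here do not give the promoter that drives the toxin or the age of the mice. The title of the series speaks of the loss of mature Paneth cells, so the TG libraries came from those cells that could still be sorted, and whether these carried the toxin was not checked here. The study describes its sorted Paneth cell samples, of which this series is a part, as taken from individual mice, while the labels give replicate numbers only, so p-values measure the spread between these samples.

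Ribosomal proteins are made in near-equal numbers, since each ribosome holds about a single copy of most of them, and their mRNAs are among the most abundant in a growing cell. Most of these mRNAs begin with a 5′ terminal oligopyrimidine (TOP) motif, a C followed by a run of C and T bases, through which mTORC1 and LARP1 control their translation and stability. Diphtheria toxin modifies elongation factor eEF2 and so stops protein synthesis. The level of an mRNA does not show how much of it was translated.

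Sequences at the annotated transcription starts are shown because the TOP motif lies there, and members differ in whether their listed start holds it. Each window has 15 bases before the annotated first transcribed base and 15 from it onwards, from the RefSeq promoter table on GRCm38.p6, 5′ to 3′ on the strand of the gene. Capitals mark the unbroken run of C and T bases from the first transcribed base, or that base alone where it is neither. Rps18, Rplp2, Rpl28 and Rpl14 are the 4 members with the highest mean level among those that held the motif, and the others are the genes on which the comparison below turns.
Rps18 (chr17:33955651-33955680, minus strand): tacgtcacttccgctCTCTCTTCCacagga
Rplp2 (chr7:141447636-141447665, plus strand): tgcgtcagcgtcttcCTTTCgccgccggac
Rpl28 (chr7:4792950-4792979, plus strand): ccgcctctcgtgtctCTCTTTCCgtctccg
Rpl14 (chr9:120571502-120571531, plus strand): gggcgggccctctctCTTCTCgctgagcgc
Rps27 (chr3:90213634-90213663, minus strand): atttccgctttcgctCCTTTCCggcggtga
Rps27l (chr9:66946071-66946100, plus strand): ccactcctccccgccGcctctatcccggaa
Rpl22 (chr4:152324421-152324450, plus strand): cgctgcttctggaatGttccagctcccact
Rpl22l1 (chr3:28805493-28805522, plus strand): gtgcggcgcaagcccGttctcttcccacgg
Rpl7l1 (chr17:46782642-46782671, minus strand): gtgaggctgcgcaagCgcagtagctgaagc
Rpl27 (chr11:101442230-101442259, plus strand): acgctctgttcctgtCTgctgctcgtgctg

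A C at the annotated start followed by at least 4 bases that are each C or T was found in 14 of the 67 members with an entry in the promoter table, or 20.9%. The same search, on the transcribed strand, found it in 813 of all 27025 symbols, or 3.01%. With a C followed by at least 7 such bases anywhere from 10 bases before to 10 after the start, which can overlap the first motif, the numbers were 22 members, or 32.8%, and 1896 symbols, or 7.02%. Of the 9 paralogues with an entry, 1 held the motif at its start (11.1%), against 13 of 57 standard members (22.8%). Rps27 opened with a run of 7 pyrimidines, whereas both starts listed for its paralogue Rps27l, of which the first is shown, were a G. For Rpl22 both listed starts were a G, again with the first shown, as was the single start listed for its paralogue Rpl22l1. In all, 10 of the 67 members had more than 1 listed start, and a gene was counted where any of its starts held the motif. A match is a description of these letters, and annotated starts can lie some bases away from those used in Paneth cells.

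Values are TMM-scaled CPM, the counts of a gene relative to the scaled library size, and calls are from the quasi-likelihood test of edgeR with Benjamini-Hochberg adjustment over all genes tested, at an adjusted p below 0.05. The 8 libraries held between 13107397 and 16218434 counts over genes. Of 11929 genes tested, 985 were higher and 1151 lower in TG (46.1% of calls higher). Scaling by total counts alone gave 787 and 263 (75% higher), and a correction for GC content and length gave 850 and 1610 (34.6% higher). The label of the cells was checked against markers. The 8 Paneth markers summed to between 222833 and 290751 CPM in TG and between 211106 and 299081 CPM in WT, and 3 of the 8 were lower in TG (7 lay below 0). Most of these sums was Lyz1, at a mean of 175041 CPM in TG and 166212 CPM in WT (log2 fold change 0.07). The 3 lower markers were Mptx2 (-1.35, edgeR adjusted p = 0.00116), Mmp7 (-0.59, edgeR adjusted p = 0.0179) and Ang4 (-0.57, edgeR adjusted p = 0.0370). Of 28 alpha-defensin genes, the antimicrobial peptides that mark these cells, 20 were tested, of which 4 were lower, none higher and 19 below 0, with a median log2 fold change of -0.30. Their summed level was 240073 to 283793 CPM in TG and 237795 to 400635 CPM in WT, and reads of these near-identical copies may be split between them. Of 11 enterocyte markers, 6 were higher in TG and none lower, and their sum was 630 to 766 CPM in TG and 429 to 535 CPM in WT, with Fabp1 at 0 in at least 1 library. Mitochondrially encoded genes took 1.15% to 1.53% of counts in TG and 0.566% to 1.10% in WT. The 7 goblet markers summed to 4465 to 6838 CPM in TG and 5868 to 6995 CPM in WT, with 0 called. Of these, 5 lay below 0, and for Agr2 (-0.65, edgeR adjusted p = 0.0532) every TG library lay below WT. The 2 above 0 were Zg16 (1.35, edgeR adjusted p = 0.250) and Tff3 (0.10, edgeR adjusted p = 0.761). The 4 stem cell markers summed to 1620 to 2355 CPM in TG and 1549 to 2226 CPM in WT, with 1, Smoc2, lower. Of 5 immune markers, Lyz2 stood at 8.31 to 29.2 CPM, while Ptprc, Jchain and the T and B cell markers Cd3e and Cd79a were at or near 0, each below 1 CPM in every library. Counts of Y-linked genes were 0 in replicates 1 and 2 of both groups, and 897 to 1564 in their replicates 3 and 4.

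Few of the ribosomal protein genes passed the test. Most fitted values lay slightly below 0, while the medians of the single libraries overlapped between TG and WT. After the filter on low counts, 82 of the 90 members were tested. No member was higher in TG, against 8.26% of all genes tested, and 5 of 82 were lower (6.10%), against 9.65% of all genes tested. The 5 were Rpl7l1, Rpl22l1, Rplp1, Rps27l and Rpl27. At an unadjusted p below 0.05, 11 were lower and 0 higher, and DESeq2 and limma voom, which called 6 lower each, also called 0 higher. The fitted log2 fold change of TG over WT was below 0 in 80 of the 82, whereas 48.7% of all genes tested were below 0. Members share the shift of each library, so this count is not one of independent observations. Its median was -0.14 over the members, a fold of 0.907, and 0.01 over all genes tested. In bulk samples such as these, fewer cells of a type and less RNA per cell cannot be told apart. The higher enterocyte markers and mitochondrially encoded share in TG, and the 3 Paneth markers and 4 alpha-defensin genes that were lower, moved with this difference, and their part in it was not tested.

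**Figure D1:**
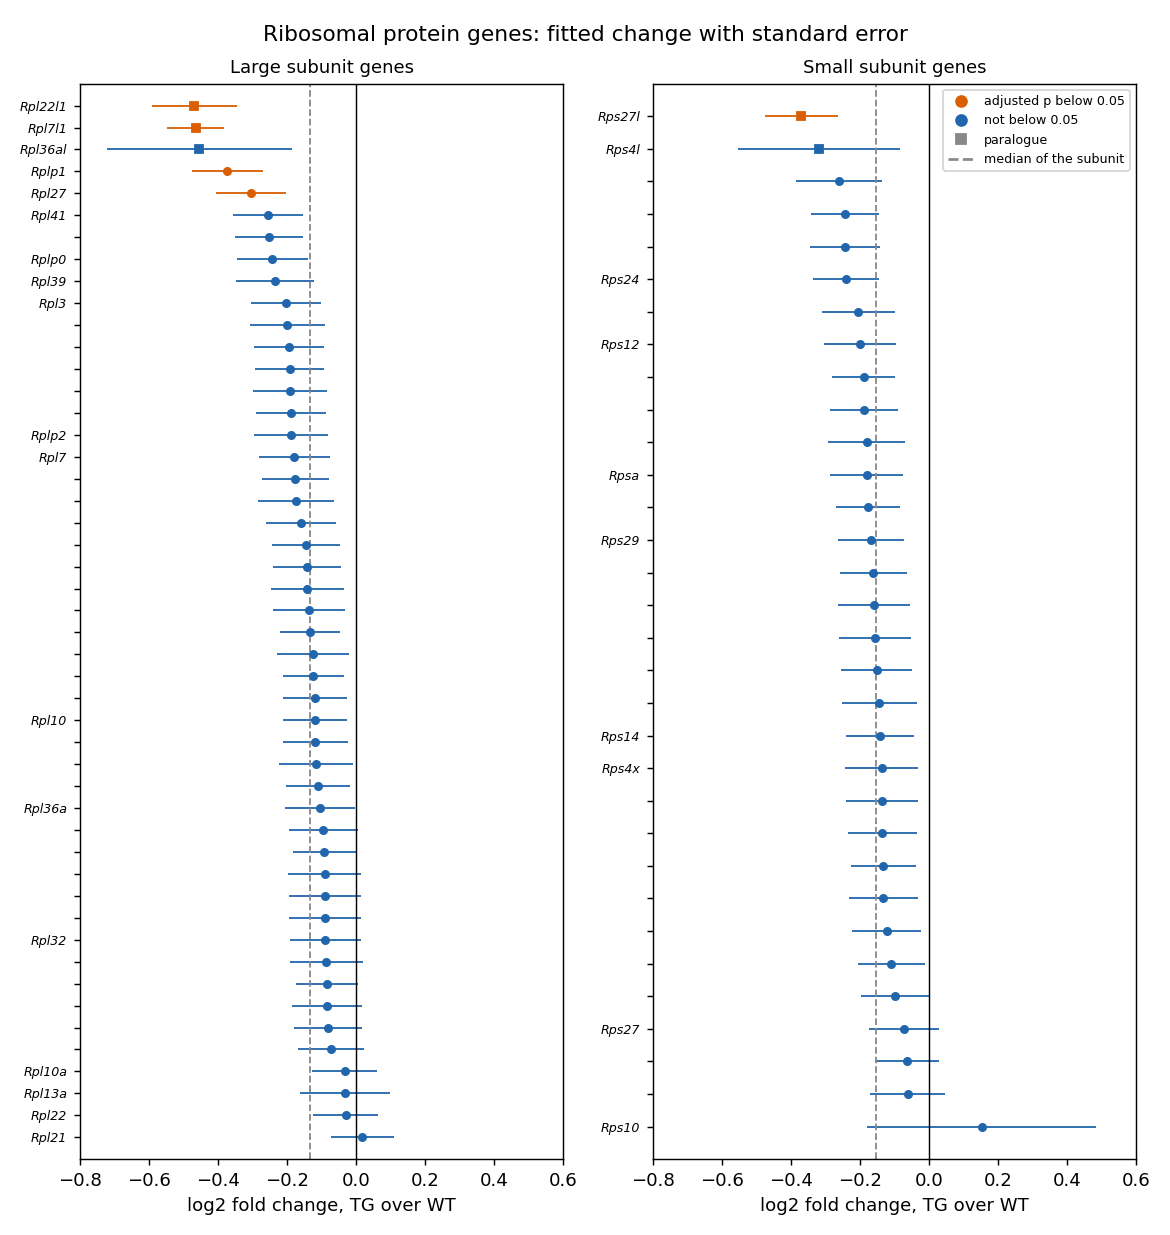
Fitted log2 fold change of TG over WT (x axis) for 80 of the 82 tested ribosomal protein genes, with bars of 1 standard error, large subunit names on the left and small subunit names on the right, and labels for genes described in the text. Orange marks the 5 genes with an adjusted p below 0.05, squares mark paralogues and the dashed line is the median of all tested genes of each subunit. Nearly all points lie between -0.3 and 0, and 2 of them, Rps10 and Rpl21, lie above 0.

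The fitted difference was small and much alike across the family. Among 74 standard members without a large overlap with another gene on the same strand, the log2 fold changes ran from -0.37 to 0.02 around a median of -0.14, and 71 of them lay between -0.3 and 0. Their standard deviation was 0.065, less than the median standard error of a single gene, 0.10. For 67 of the 82 tested members, 0 lay within 2 standard errors of the fitted log2 fold change. A change of the median size in a single member was therefore not detectable at this depth and spread. The 48 tested large subunit genes had a median of -0.13, with 4 lower and none higher, and the 34 small subunit genes a median of -0.15, with 1 lower and none higher. Large subunit genes made up 57.7% of the ribosomal protein counts in both groups, with an SD of 0.159 percentage points in TG and 0.254 in WT.

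The libraries differed among themselves by as much as the groups did. TG replicate 1 was the lowest TG library, with a median log2 deviation of its tested members from their own means of -0.18, followed by TG replicate 2 at -0.09, TG replicate 3 at -0.04 and TG replicate 4 at 0.02. Among WT libraries, replicate 1 stood at 0.22, replicate 4 at 0.14 and replicate 3 at 0.10, and replicate 2 at -0.18. WT replicate 2 thus lay at the level of the lowest TG library. It was the lowest of all 8 libraries for 45 members, against 28 for TG replicate 1. It was the lowest WT library for 78 of the 82 tested members and at or below the highest TG library for 76. WT replicate 1 was the highest of all 8 libraries for 59 members. WT replicates 1, 3 and 4 all lay above the highest TG library for 59 members. For 5 of the 82 tested members (6.10%) the ranges of the groups did not overlap, against 22.0% of all genes tested, and in all 5 TG lay below WT. Without WT replicate 2, 18 members (22.0%) were lower in TG and the median was -0.23, while 9.76% of all genes tested without that library were lower. Leaving out TG replicate 1 or TG replicate 2 left 1 lower member (1.22%), against 4.61% and 4.72% of all genes. Leaving out WT replicate 1 left 2 (2.44%, against 7.76% of all genes), and leaving out WT replicate 4 left 3 (3.66%, against 7.04%). The members' share of lower calls was thus above that of all genes in the set without WT replicate 2 and below it with all 8 libraries and in these 4 other sets.

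**Figure D2:**
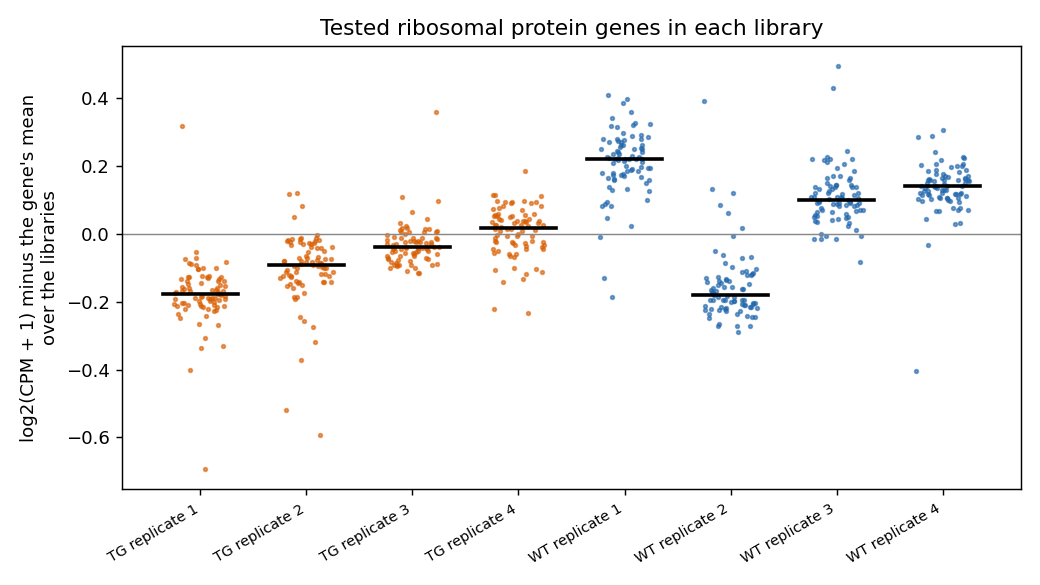
Each point is 1 of the 82 tested ribosomal protein genes in 1 library. The y axis gives log2(CPM + 1) minus the mean of that gene over the 8 libraries, TG in orange and WT in blue, and the black bars are medians. The points of a library lie close together, and WT replicate 2, at -0.18, is apart from the other WT libraries, at 0.10 to 0.22.

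Summed over members, the scaled level was 13682 to 15665 CPM in TG and 13817 to 18071 CPM in WT, so the ranges overlapped. As a plain share of all counts, the 90 genes took 1.54% ± 0.100 (SD, n = 4) in TG and 1.57% ± 0.177 (SD, n = 4) in WT. These shares differed by -0.03 percentage points, less than the SD of either group. The difference was 0.03 within the libraries without Y-linked counts and -0.10 within those with them. Without the alpha-defensin genes and Lyz1, the most abundant Paneth cell mRNAs, the shares were 2.84% ± 0.140 in TG and 2.89% ± 0.305 in WT (SD, n = 4). With scaling by total counts alone the median of the tested members was -0.02 and 27 of them lay above 0, while the median of all genes tested was 0.12. Relative to that median the members stood at -0.14 under total counts and at -0.15 under TMM.

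Levels between genes were compared per kb of a reference transcript. Rps12, a small subunit protein, had the highest level with 725 CPM per kb, followed by Rpl41, the shortest of the ribosomal proteins, with 723 CPM per kb, and the stalk protein Rplp1 with 686 CPM per kb. Next came Rps24 with 604, Rplp0 with 575, Rps29 with 529, Rpl32 with 478 and Rps14 with 473 CPM per kb. Rps12 and Rpl41, the first 2 in this order, cannot be ranked against each other, since their single libraries overlapped widely. Tested standard members had a median of 148 CPM per kb in the large and 250.2 CPM per kb in the small subunit. For 8 tested members the reference transcript was longer than 3000 bases, and their level per kb would be understated where a shorter transcript is used.

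The lateral stalk of the large subunit, which recruits the translation factors to the ribosome, is built from Rplp0 and copies of the acidic proteins Rplp1 and Rplp2. Rplp1 (ENSMUSG00000007892, chr9:61820557-61821872 on GRCm39, minus strand) stood at 293, 325, 345 and 345 CPM in TG replicates 1 to 4 and at 489, 369, 432 and 403 CPM in WT replicates 1 to 4. All TG libraries lay below all WT libraries. The fitted log2 fold change of Rplp1 was -0.37 ± 0.10 (SE) at an edgeR adjusted p of 0.0240. Rplp0, the anchor of the stalk, was measured at 655, 696, 712 and 735 CPM in TG and at 945, 727, 797 and 840.1 CPM in WT. Only WT replicate 2 fell within the TG range, and the log2 fold change of -0.24 ± 0.10 did not pass (edgeR, adjusted p = 0.119). Rplp2 gave 163, 166, 190.2 and 193 CPM in TG and 228, 164, 215 and 204 CPM in WT. Its groups overlapped through WT replicate 2, at a log2 fold change of -0.19 ± 0.11 (edgeR, adjusted p = 0.239). As a part of the ribosomal protein counts, which does not depend on library scaling, Rplp1 took 2.14% to 2.29% in TG and 2.36% to 2.71% in WT, without overlap. Per 100 Rplp0 counts, there were 44.8 to 48.5 Rplp1 counts in TG and 48.0 to 54.3 in WT, with overlapping ranges. Of the other called genes, Rpl7l1 and Rpl22l1 also had shares of the ribosomal protein counts without overlap, while those of Rps27l and Rpl27 overlapped. Without TG replicate 1, TG replicate 2 or WT replicate 1 the Rplp1 call was lost. It was also lost with total counts alone and within the libraries with or without Y-linked counts, and over all alternatives its adjusted p ran from 0.00326 to 0.279.

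Paralogues held 5 of the 6 lowest fold changes. Rpl7l1, a relative of Rpl7 that is similar to a ribosome assembly factor of yeast (ENSMUSG00000063888, chr17:47084824-47093606 on GRCm39, minus strand), stood at 35.5, 36.8, 40.7 and 37.4 CPM in TG and at 52.4, 48.5, 51.8 and 54.9 CPM in WT. The groups were well apart, with even the lowest WT library above the highest TG library. The fitted log2 fold change of Rpl7l1 was -0.47 ± 0.08 (SE), a fold of 0.724, at an edgeR adjusted p of 0.00254. The call was lost with total counts alone and within the libraries with Y-linked counts, and its adjusted p was at most 0.0829 over the alternatives. Rpl7 itself, a standard large subunit protein, was at 277, 303, 303 and 336 CPM in TG and at 365, 286, 361 and 368 CPM in WT. Only WT replicate 2 lay among the TG libraries, and Rpl7 was not called (log2 fold change -0.18 ± 0.10, edgeR adjusted p = 0.240). Per 100 Rpl7 counts, TG libraries held 12.4 ± 0.993 counts of Rpl7l1 (SD, n = 4) and WT libraries 15.1 ± 1.22, without overlap.

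Rpl22l1, which can take the place of the RNA-binding protein Rpl22 in the large subunit (ENSMUSG00000039221, chr3:28859585-28861573 on GRCm39, plus strand), was at 28.0, 25.7, 36.9 and 37.1 CPM in TG and at 49.9, 39.7, 43.5 and 43.9 CPM in WT. TG replicates 1 and 2 were the lowest, and no TG library reached the WT range. The log2 fold change was -0.47 ± 0.12 (edgeR, adjusted p = 0.0186). Rpl22 gave 89.6, 102, 101 and 89.6 CPM in TG and 97.8, 83.9, 107 and 102 CPM in WT. These groups overlapped over nearly their whole range, with a log2 fold change of -0.03 ± 0.09 (edgeR, adjusted p = 0.850). The ratio of Rpl22l1 to Rpl22 was 33.6 ± 6.98 counts per 100 (SD, n = 4) in TG against 45.6 ± 4.53 in WT, and the ranges overlapped slightly. The Rpl22l1 call was lost without TG replicate 1 and without TG replicate 2, with total counts alone and within the libraries with Y-linked counts. Over the alternatives its adjusted p was at most 0.297.

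Rps27l, the paralogue of the small subunit protein Rps27 and a known target of p53 (ENSMUSG00000036781, chr9:66853340-66856808 on GRCm39, plus strand), was at 85.7, 75.1, 93.5 and 90.1 CPM in TG and at 128, 102, 96.4 and 119 CPM in WT. WT replicate 3 was only just above TG replicate 3. The log2 fold change was -0.37 ± 0.10 (edgeR, adjusted p = 0.0265). Rps27 stood at 134, 151, 150.5 and 163 CPM in TG and at 171, 129.5, 158 and 170.5 CPM in WT. WT replicate 2 was the lowest of the 8 libraries, and the log2 fold change was -0.07 ± 0.10 (edgeR, adjusted p = 0.660). Per 100 Rps27 counts, TG libraries held 57.8 ± 6.56 counts of Rps27l (SD, n = 4) and WT libraries 71.0 ± 7.56, with overlapping ranges. The Rps27l call was lost without TG replicate 1, TG replicate 2, WT replicate 1 or WT replicate 4, with total counts alone and within the libraries with Y-linked counts, over an adjusted p range of 0.00394 to 0.378.

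Whether a paralogue differed from its parent was tested on these ratios with an exact two-sided permutation test of the libraries, for 5 pairs. The exact p was 0.0286 for Rpl7l1 over Rpl7, the smallest that 4 against 4 libraries can give, 0.0571 for Rpl22l1 over Rpl22 and 0.0857 for Rps27l over Rps27. After Benjamini-Hochberg adjustment over the 5 pairs, the permutation p was 0.143 for each of these 3 ratios. With 4 libraries in each group and 5 pairs, a single ratio cannot pass this adjustment even where its groups are fully apart, so these values do not show that a paralogue and its parent moved alike. The exact permutation p was 0.200 for Rpl36al over Rpl36a and 0.486 for Rps4l over Rps4x. Rpl36al had a log2 fold change of -0.45 ± 0.27 (edgeR, adjusted p = 0.251), at 1.27 to 2.89 CPM in TG and 2.40 to 3.61 CPM in WT. Rps4l had -0.32 ± 0.23 (edgeR, adjusted p = 0.371), at 5.12 to 11.7 CPM in TG and 7.23 to 13 CPM in WT. Both had low counts, and their groups overlapped.

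Rpl27, a standard large subunit protein (ENSMUSG00000063316, chr11:101333074-101336422 on GRCm39, plus strand), was named after its values were seen because it was the fifth call. It stood at 36.6, 30.6, 36.0 and 35.8 CPM in TG and at 47.6, 35.9, 45.1 and 43.3 CPM in WT. WT replicate 2 lay below TG replicates 1 and 3, so the groups overlapped. The log2 fold change was -0.30 ± 0.10 with an adjusted p of 0.0484 by edgeR, just inside the threshold, and the call was lost under 14 of 23 alternatives. The losses came without each library but WT replicate 2, and also with RLE factors, total counts, scaling without alpha-defensin genes and Lyz1, the 1 CPM filter, the Y-linked covariate and both subsets by Y-linked counts. Rps19bp1 was the other gene, beside the first 4 named, whose ranges did not overlap, at 7.87 to 9.58 CPM in TG and 9.81 to 11.2 CPM in WT (log2 fold change -0.26 ± 0.12, edgeR adjusted p = 0.157).

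**Figure D3:**
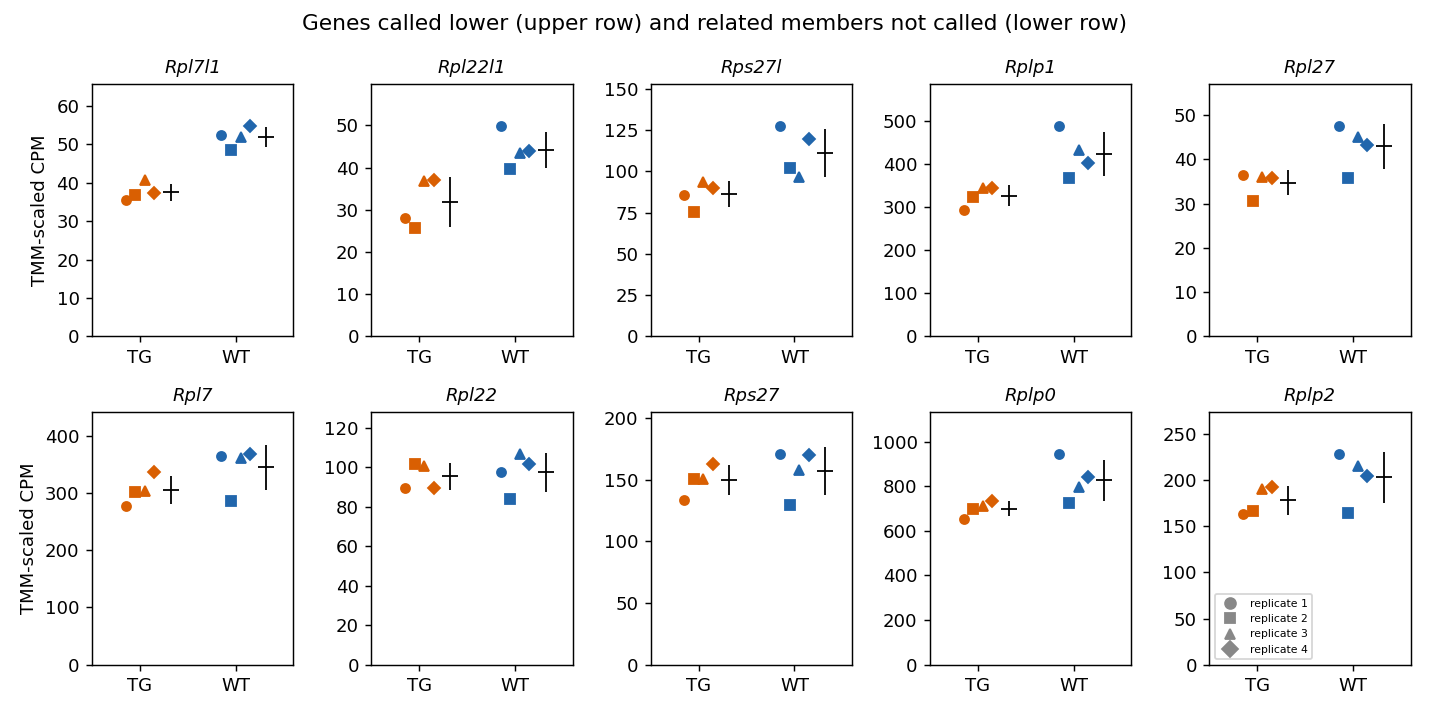
TMM-scaled CPM (y axis, from 0) in each TG (orange) and WT (blue) library, with symbol shapes for replicates 1 to 4 and the mean and SD of the 4 libraries in black. The upper row holds the 5 genes called lower and the lower row related members that were not called. Rpl7l1, Rpl22l1, Rps27l and Rplp1 show no overlap between groups, while in Rpl7, Rps27, Rplp2 and Rpl22 WT replicate 2 (square) lies within or below the TG points.

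The other named standard members were not called. Rpl41 stood at 249 to 278 CPM in TG and 261 to 354 CPM in WT (log2 fold change -0.26 ± 0.10, edgeR adjusted p = 0.0957), and Rps24 at 233 to 276 CPM in TG and 268 to 340 CPM in WT (-0.24 ± 0.10, edgeR adjusted p = 0.0967). Rps12 lay at 321 to 371 CPM in TG and 339.6 to 461 CPM in WT (-0.20 ± 0.10, edgeR adjusted p = 0.195). Rpsa, the laminin-receptor protein of the small subunit, was at 323 to 342 CPM in TG and 306 to 432 CPM in WT (-0.18 ± 0.11, edgeR adjusted p = 0.251). Rpl3, a core protein near the peptidyl transferase centre, was at 244 to 281 CPM in TG and 256 to 335 CPM in WT (-0.20 ± 0.10, edgeR adjusted p = 0.172). In each of these, the lowest WT library lay within the TG range or, for Rpsa, below it. Rpl32 had a log2 fold change of -0.09 (adjusted p = 0.577 by edgeR), Rps14 one of -0.14 (0.336) and Rps29 one of -0.17 (0.239).

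The highest values were held by Rps10 and Rpl21. Rps10 was listed at a log2 fold change of 0.15 ± 0.33 and Rpl21 at 0.02 ± 0.09 (edgeR, adjusted p = 0.783 and 0.912). Rpl10a, Rpl13a and Rpl22 followed, each with a log2 fold change of -0.03. The 4 X-linked members, Rpl10, Rpl36a, Rpl39 and Rps4x, had log2 fold changes of -0.12, -0.11, -0.24 and -0.14, and none was called.

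Rps10, Rpl24 and Rpl13a were far below the other standard members, and these and the paralogue Rpl36al share sequence positions with a read-through gene on the same strand. Rps10 had 11 to 32 counts per library, with 91.6% of its exon bases also in Gm49804. Rpl24 had 0 to 7 counts, with 71.5% in Gm28037, and was not tested. Rpl13a had 133 to 233 counts, with 59.3% in Gm45713 or Mir5121, and Rpl36al 18 to 54 counts, with 26.0% in Gm49383. Values of these 4 genes are uncertain, since the sources used here do not say how reads in overlapping genes were treated. The tested members with 50% or more of their 75-base windows present in a transcript of another gene can lose reads in the same way. The median log2 fold change was -0.12 in the 28 such standard members and -0.14 in the 48 others. The counts of the 321 named pseudogenes of members, which are not among the members' counts, came to 0.118% to 0.138% of those in size.

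The 8 members not tested were the paralogues or copies Rpl3l, Rpl10l, Rpl39l, Rpl27rt, Rpl35rt, Rps27rt and Rps23rg1, and Rpl24. Rpl3l, known from muscle, had 1 count over the 8 libraries, and Rpl10l and Rpl39l, known from testis, had 11 and 5. Rps27rt had 5 and Rpl27rt 0, which allows up to 3 counts over the group of libraries. Rpl35rt and Rps23rg1 had 56 and 59.

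Members with and without the TOP motif at the annotated start had like medians. The 13 tested standard members with the motif had a median log2 fold change of -0.14, and the 43 with an entry but no motif also -0.14. Among these, 0 with the motif and 1 without it (Rpl27) were called. The listed starts of the called paralogues Rpl7l1, Rpl22l1 and Rps27l also lacked the motif at the start, and Rplp1 had no entry. In the wider search around the start, however, Rpl22l1 held the longer motif, whereas Rpl7l1, Rps27l and Rpl27 did not.

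Genes of the wider ribosome pathway were read from 8 lists, each beside the 9.65% of all genes that were lower and the 8.26% that were higher. Ribosome biogenesis factors, which process ribosomal RNA and assemble the subunits, held the most calls. Of 65 tested, 34 were lower (52.3%) and none higher, with a median log2 fold change of -0.37 and 64 below 0. Rrp12, a factor in the export and maturation of ribosomal subunits, was at 11.9 to 16.1 CPM in TG and 23.7 to 28.3 CPM in WT (log2 fold change -0.88 ± 0.11, edgeR adjusted p = 0.000584). Heatr1, of the small subunit processome, was at 26.9 to 31.0 CPM in TG and 43.3 to 51.0 CPM in WT (-0.67 ± 0.09, edgeR adjusted p = 0.000700). Bop1, which acts in 28S rRNA maturation, was at 29.2 to 39.7 CPM in TG and 50.4 to 58.2 CPM in WT (-0.69 ± 0.10, edgeR adjusted p = 0.000885). In these 3 genes, named for the smallest p of the list, every WT library, replicate 2 included, lay above every TG library. Over the list, the TG range lay below the WT range in 35 of the 65 genes. Of all genes tested, 22.0% had ranges that did not overlap, in either direction. Whether the list as a whole differed from the ribosomal protein genes was not tested. The count of lower genes was 20 without TG replicate 1 and 21 without TG replicate 2, 8 with total counts alone, and 15 and 6 within the libraries without and with Y-linked counts. The share of all genes lower also fell, to 4.61%, 4.72%, 2.20%, 5.29% and 0.857% in these fits, in that order.

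Mitochondrial ribosomal proteins form the separate ribosome of the organelle. Of 77 tested, 17 were lower (22.1%) and none higher, with a median log2 fold change of -0.21. Mrps18b was at 8.0 to 10.1 CPM in TG and 13.2 to 18.7 CPM in WT (log2 fold change -0.80 ± 0.13, edgeR adjusted p = 0.00195). Mrpl20 was at 14 to 16 CPM in TG and 20.9 to 22.4 CPM in WT (-0.51 ± 0.10, edgeR adjusted p = 0.00329), and Mrpl50 at 27.1 to 30.7 CPM in TG and 35.8 to 44.8 CPM in WT (-0.47 ± 0.10, edgeR adjusted p = 0.00499). The count was 4 without TG replicate 1, 5 without TG replicate 2, 10 without WT replicate 1, 10 without WT replicate 3 and 11 without WT replicate 4. It was 1 with total counts alone, and 3 and 0 within the libraries without and with Y-linked counts. The share of all genes lower was 4.61% and 4.72% without TG replicate 1 and TG replicate 2. It was 7.76%, 8.91% and 7.04% without WT replicates 1, 3 and 4. With total counts alone it was 2.20%, and within the libraries without and with Y-linked counts 5.29% and 0.857%.

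**Figure D4:**
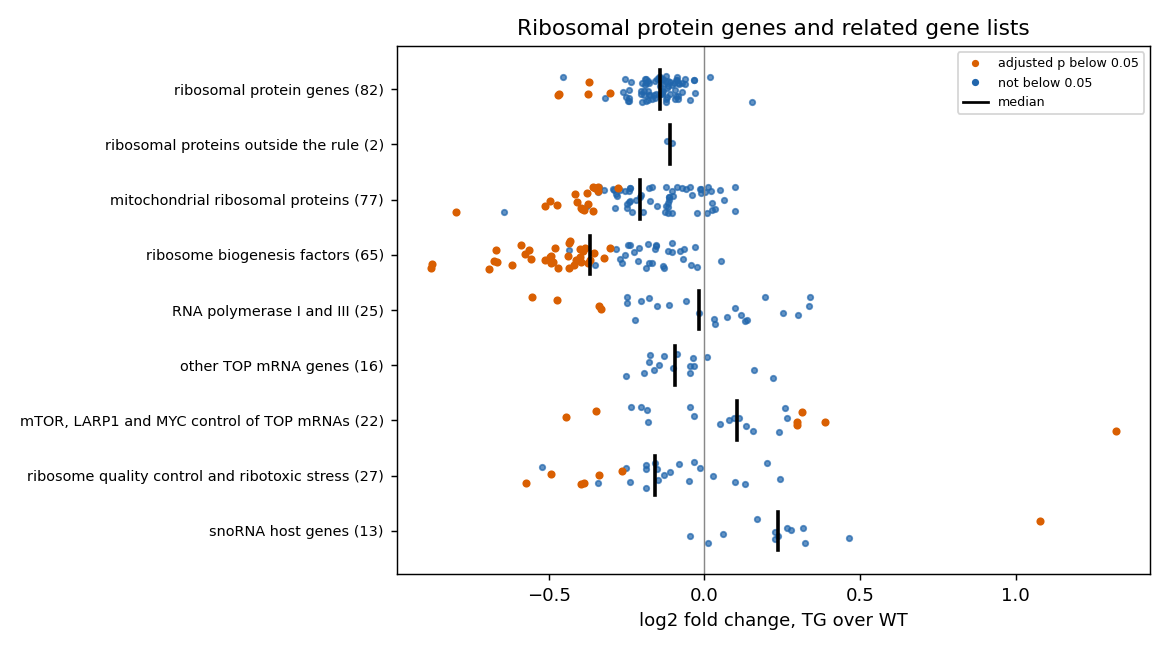
Fitted log2 fold change of TG over WT (x axis) of each tested gene in the ribosomal protein family and in 8 related lists, with the number tested in brackets. Orange points have an adjusted p below 0.05 and black bars are medians. The biogenesis factors have the lowest median of these lists, -0.37, against -0.14 for the ribosomal protein genes.

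Other lists around the ribosome held fewer calls. Rack1 and Fau, ribosomal proteins outside the naming rule, had log2 fold changes of -0.12 and -0.10, and neither was called, also at an unadjusted p below 0.05. Of 16 other TOP mRNA genes, many of which encode translation factors or RNA-binding proteins, 0 were called by edgeR, with 1 higher and 2 lower at an unadjusted p below 0.05, and the median was -0.09. DESeq2 called 2 of them lower and limma voom 1. Eef1g, of the elongation factor 1 complex, was the member with the smallest p (-0.25 ± 0.09, edgeR adjusted p = 0.0627), followed by Hnrnpa1 (0.22 ± 0.10, edgeR adjusted p = 0.122) and Nap1l1 (-0.19 ± 0.09, edgeR adjusted p = 0.135). Without WT replicate 2, 1 of the 16 was lower, and with the GC and length correction 2 were.

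Of 22 genes in mTOR, LARP1 and MYC control, 5 were higher and 2 lower in TG, with a median of 0.10. The balance turned to 3 higher and 4 lower with the GC and length correction, at a median of 0.02, and was 1 and 0 with total counts alone, 2 and 0 within the libraries without Y-linked counts and 0 and 0 within those with them. Eif4e, the cap-binding factor, was lower at 25.7 to 31.7 CPM in TG and 36.7 to 41.9 CPM in WT (-0.45 ± 0.09, edgeR adjusted p = 0.00492). Max, the partner of MYC proteins, was lower at 30.4 to 35 CPM in TG and 38.1 to 43.2 CPM in WT (-0.35 ± 0.09, edgeR adjusted p = 0.0133). Mycn, a MYC family member, was higher at 3.37 to 6.81 CPM in TG and 1.18 to 2.14 CPM in WT (1.32 ± 0.28, edgeR adjusted p = 0.00607). The count of higher genes was 1 without TG replicate 1, TG replicate 2 or WT replicate 4, 3 without TG replicate 3, TG replicate 4, WT replicate 1 or WT replicate 3, and 5 without WT replicate 2. Of all genes, 985 were higher in the reported fit. That number was 533, 485 and 727 without TG replicate 1, TG replicate 2 and WT replicate 4. It was 749, 872, 771 and 917 without TG replicate 3, TG replicate 4, WT replicate 1 and WT replicate 3. Without WT replicate 2 it was 1045. The count of lower genes in the list was 1 without TG replicate 1, 3 without WT replicate 3 or with DESeq2, and 2 in each of the other sets without 1 library.

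Of 25 subunits and factors of RNA polymerases I and III, which transcribe the ribosomal RNAs, 4 were lower and none higher, with a median of -0.02. Rrn3, which starts transcription by polymerase I, was at 20.7 to 24.0 CPM in TG and 29.1 to 33.9 CPM in WT (-0.47 ± 0.09, edgeR adjusted p = 0.00423). Polr1a and Polr1e, subunits of polymerase I, had log2 fold changes of -0.33 ± 0.09 and -0.55 ± 0.16 (edgeR adjusted p = 0.0256 and 0.0299). Without 1 library the count of lower genes was 1 (TG replicate 2 or WT replicate 3), 2 (TG replicate 1, 3 or 4, or WT replicate 4), 3 or 4, and with total counts alone it was 0. Within the libraries without Y-linked counts 1 gene was higher and 1 lower, and within those with them 0 were called. In 4 further fits 1 gene was higher: with limma voom, with no filter, without WT replicate 2 and without WT replicate 3. The share of all genes lower ran from 4.61% to 9.76% without 1 library and was 2.20% with total counts alone. It was 5.29% and 0.857% within the libraries without and with Y-linked counts.

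Of 27 genes of ribosome quality control and ribotoxic stress, 6 were lower (22.2%) and none higher, with a median of -0.16. Abce1, which splits ribosomes for reuse, was at 101 to 115 CPM in TG and 159 to 164 CPM in WT (-0.57 ± 0.08, edgeR adjusted p = 0.000751). Vcp, an ATPase that pulls stalled products from ribosomes among other tasks, was at 136 to 190.2 CPM in TG and 218 to 261 CPM in WT (-0.49 ± 0.11, edgeR adjusted p = 0.00770). Ufm1, a ubiquitin-like modifier of the ribosomal protein Rpl26, had -0.40 ± 0.10 (edgeR adjusted p = 0.0172). The count of lower genes was 2 without TG replicate 1 or TG replicate 2, 3 without WT replicate 4, 9 with limma voom, 13 with the GC and length correction and 1 with total counts alone. It was 5 and 1 within the libraries without and with Y-linked counts. The share of all genes lower was 4.61% and 4.72% without TG replicate 1 and TG replicate 2, and 7.04% without WT replicate 4. It was 11.1% with limma voom, 13.5% with the GC and length correction and 2.20% with total counts alone. Within the libraries without and with Y-linked counts it was 5.29% and 0.857%. Without WT replicate 2, 1 gene of the list was higher beside 6 lower.

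The host genes of small nucleolar RNAs, non-coding transcripts many of which also begin with a TOP motif, went the other way in median. Of 13 tested, 1 was higher and none lower, and 12 lay above 0, with a median log2 fold change of 0.24. Snhg20 was the single call, at 1.90 to 4.06 CPM in TG and 0.639 to 2.57 CPM in WT (1.08 ± 0.35, edgeR adjusted p = 0.0445). The count of calls was 0 without TG replicate 1, 2 or 3, without WT replicate 1 or 4, with total counts alone, with the Y-linked covariate and within both subsets by Y-linked counts. Of all genes, 113 to 984 were higher in these fits, against 985 in the reported fit. Snhg5 had 0.46 ± 0.20 and Gas5 0.28 ± 0.14, and neither passed (edgeR adjusted p = 0.12 and 0.194).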

How the data were processed

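RNA of sorted Paneth cells was sequenced after a stranded, poly(A)-selecting Illumina preparation. The authors deposited whole-number counts per Ensembl gene and library. The submitters' processing notes name FastQC 0.12.0, STAR 2.7.0a, DESeq2 and mm39. Not given in the sources used here were the counting tool, its annotation and the treatment of multi-mapped reads, and no columns of the authors' comparisons were used.

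From the counts, TG and WT were compared with edgeR 4.0.16 in R 4.3.3 (robust quasi-likelihood test, TMM factors, filterByExpr by group, adjusted p over 11929 genes), after a test on simulated data. limma 3.58.1 and DESeq2 1.42.0 served as alternatives. Ranges use TMM-scaled CPM. Symbols and positions came from GENCODE on GRCm39, and 54749 of 55414 IDs matched. Levels per kb used the shortest CCDS transcript, available for 87 members. Starts came from RefSeq on GRCm38.p6, where 67 members had an entry and 23 had none. Replicates differed by more than counting noise, with a chi-square of at least 5.20 per degree of freedom, and none was counted as a duplicate.

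Members and lists were chosen with earlier results of these data known. Named were the 8 members highest per kb, the 6 highest and 6 lowest fold changes, Rpsa, the stalk genes, the paralogues with their parents, and in each list the 3 genes with the smallest p. A few genes are not reported here by name, though counts and medians include them.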

Additional observations from a re-analysis of the deposited data

Results flagged for a closer look

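Dixon's criterion was applied to 80 tested members and to 9 share and ratio measures, in TG and WT apart, over 178 groups of 4 libraries. A library stood far from the others of its group in 7, and chance alone gives about 1 in 20, or 8.9. In 4 of the 7 it was WT replicate 2 that lay low. Rpl11 was at 142 CPM there against 182 to 185 in the other WT libraries, Rpl14 at 162 against 207 to 212, Rpl7 at 286 against 361 to 368, and Rps18 at 167 against 210.4 to 219. TG replicate 1 lay low for Rpl14, at 167 CPM against 183 to 185 in the other TG libraries, and for Rps3, at 352 against 393 to 396. TG replicate 2 lay low for Rpl27, at 30.6 CPM against 35.8 to 36.6. No member had an adjusted interaction p below 0.05 between the libraries with and without Y-linked counts by edgeR, and 1, Rpl22l1, had an unadjusted p below 0.05, with an adjusted p of 0.776. Of all 11929 genes tested, 3 had an adjusted and 684 an unadjusted interaction p below 0.05.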

How the results depend on the processing

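No alternative gave a ribosomal protein gene higher in TG. The number lower was 5, and it became 0 with total counts only (4 at an unadjusted p below 0.05), 8 with the GC and length offset, 3 within the libraries without Y-linked counts and 0 within those with them (3 at an unadjusted p below 0.05). Leaving out 1 library in turn gave 1 to 18 (1 without TG replicate 1 or TG replicate 2, 2 without WT replicate 1, 3 without WT replicate 4, 18 without WT replicate 2). The share of all genes lower was 9.65% in the reported fit, 2.20% with total counts, 13.5% with the offset, and 5.29% and 0.857% within the libraries without and with Y-linked counts. It was 4.61% without TG replicate 1, 4.72% without TG replicate 2, 7.76% without WT replicate 1, 7.04% without WT replicate 4 and 9.76% without WT replicate 2, where 22.0% of members were lower. All 5 genes were also called without WT replicate 2 and with the GC and length offset. DESeq2 and voom each gave 6. Same-numbered libraries of the groups correlated at 0.08, 0.07, 0.29 and 0.23 in their deviations from group means. Libraries of different number were not compared, so these values cannot decide whether the numbers mark pairs. The presence of Y-linked counts also went with the replicate number in both groups. The reported fit did not take the numbers as pairs. With the replicate block 5 genes were lower, and with the block and the GC and length offset 8. The median log2 fold change, -0.14, ran from -0.23 to -0.10 without 1 library and from -0.16 to -0.02 in the other alternatives. The difference in share of counts, -0.03 percentage points, ran from -0.09 to 0.05 without 1 library, and was -0.10 within the libraries with Y-linked counts. Its sign turned within those without them (0.03), without TG replicate 1 (0.00709), without WT replicate 3 (0.05) and with counts divided by exon length (0.000714), each within the SD of a group. The sign changes below are those of the members named by rule, and none concerns a called gene. With total counts only, 27 of all 82 tested members lay above 0, against 2 in the reported fit. Among those named by rule, log2 fold changes turned to 0.00342 for Rpl10, 0.0792 for Rpl10a, 0.0858 for Rpl13a, 0.0857 for Rpl22, 0.0316 for Rpl32, 0.0129 for Rpl36a and 0.0488 for Rps27. Within the libraries without Y-linked counts, Rpl13a was at 0.161 and Rpl22 at 0.0744, and with pseudogene counts added Rps10 was at -0.0538. Without 1 library, 5 of the members named by rule changed sign, and their values ran from -0.0920 to 0.0187 for Rpl10a, -0.101 to 0.0527 for Rpl13a, -0.0513 to 0.0572 for Rpl21, -0.0988 to 0.0141 for Rpl22 and -0.0268 to 0.465 for Rps10.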
